A study of Sus scrofa with 24 samples.

Results

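The miR-183 cluster consists of miR-183, miR-96 and miR-182, which are encoded side by side and are cut from neighbouring hairpins. It was examined here in cultured pig fat cells. Its members were taken as the entries named ssc-miR-182, ssc-miR-183 or ssc-miR-96 with any arm suffix, which gave 3 entries (ssc-miR-182, ssc-miR-183 and ssc-miR-96-5p) of the 1587 miRNA entries in the deposited table. Preadipocytes from the back subcutaneous fat (BF) and from the longissimus dorsi muscle (IMF, intramuscular fat) of 6-day-old Yorkshire piglets were differentiated in culture, and small RNA was sequenced before induction (day 0) and on days 2, 4 and 8. Both sources received the same media, an induction medium with IBMX, dexamethasone and insulin followed by a maintenance medium with insulin, in 8 groups (BF-0d, BF-2d, BF-4d, BF-8d, IMF-0d, IMF-2d, IMF-4d and IMF-8d). The muscle was digested for longer and with more collagenase than the fat, so the source of the cells and their isolation cannot be told apart. Each group held 3 libraries, 24 in all. The labels do not say which piglet or culture a library came from, so the p-values measure the spread between these libraries, which may be technical.

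A miRNA is a short RNA that guides silencing proteins to mRNAs, mainly by pairing of its bases 2 to 8, the seed. The 3 members are conserved among vertebrates and are best known from sensory organs such as the retina and the inner ear, where changes in miR-96 cause hearing loss. In metabolic tissue, miR-96 and miR-182 repress FOXO1, a transcription factor that restrains the adipocyte programme, and SREBP-2, a regulator of sterol synthesis, activates the cluster in liver. miR-183 is known to repress LRP6, a co-receptor of the Wnt signals that hold preadipocytes undifferentiated.

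The mature sequences are shown because the 3 members differ in the seed by single bases. Lower case letters are used and the seed (bases 2 to 8) is in capitals, 5′ to 3′.
ssc-miR-183: tATGGCACtggtagaattcactg
ssc-miR-96-5p: tTTGGCACtagcacatttttgct
ssc-miR-182: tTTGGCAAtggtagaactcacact
Positions are counted from 1 at the 5′ end, with the base of the first-named miRNA first. From miR-182 to miR-96-5p the seed carries 1 substitution, A8C. From miR-96-5p to miR-183 it also carries 1, T2A, and from miR-182 to miR-183 it carries both, T2A and A8C. Over the full length, seed included, the order of likeness was different: miR-182 and miR-183 shared 18 of 23 aligned positions, miR-96-5p and miR-183 shared 13, and miR-182 and miR-96-5p shared 12. The members therefore have 3 different seeds, and the closest pair over the full length is not the closest pair in the seed.

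Each mature sequence occurred once in the Sscrofa11.1 genome, on the plus strand of chromosome 18. The miR-183 mature sequence lies at chr18:18982274-18982296, miR-96-5p at chr18:18982516-18982538 and miR-182 at chr18:18986840-18986863. The hairpins are printed to show where the counted arm sits, with the mature sequence in capitals.
ssc-miR-183 hairpin: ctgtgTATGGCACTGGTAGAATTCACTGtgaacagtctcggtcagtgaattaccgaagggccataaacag
ssc-miR-96 hairpin: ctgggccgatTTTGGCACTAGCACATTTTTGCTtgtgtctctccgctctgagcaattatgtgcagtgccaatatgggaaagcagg
ssc-miR-182 hairpin: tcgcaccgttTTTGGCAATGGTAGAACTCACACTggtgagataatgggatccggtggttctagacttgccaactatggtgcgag
All 3 counted sequences come from the 5′ arm. The hairpins span 4645 bases, with 167 bases between those of miR-183 and miR-96 and 4239 bases between those of miR-96 and miR-182. In the RefSeq annotation no other gene overlaps the span, which is intergenic: the nearest protein-coding genes are UBE2H, 49359 bases before it, and NRF1, 21494 bases after it.

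The libraries held 4954845 to 16863560 reads on miRNAs. The unit, called TPM by the authors, is reads per 1000000 reads on the listed miRNAs, so a value is a share of the miRNA reads of a library. A level of 3 reads corresponds to 0.178 to 0.605 TPM, and the members were covered by 22 to 21290 reads per library, so none was near that floor. This floor covers counting error only, whereas the intervals of fold changes rest on the spread between libraries. miR-182 ranged from 102 to 1911 TPM and stood between rank 27 and rank 106 of all entries. miR-183 ranged from 56.2 to 961 TPM, at ranks 44 to 128. miR-96-5p was the rarest member, with 2.50 to 85.3 TPM, at ranks 119 to 303. Within a library miR-182 supplied 58.5% to 73.0% of the summed cluster reads, miR-183 23.9% to 40.3% and miR-96-5p 0.921% to 4.64%.

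The 3 members rose steeply during BF differentiation from their lowest levels in BF-0d (miR-182 and miR-183) or BF-2d (miR-96-5p). In IMF the means of all 4 days lay between those of BF-0d and BF-8d. Summed over the members, the cluster took 204 ± 59.9 TPM (SD, n = 3) in BF-0d and 2119 ± 555 TPM in BF-8d. In IMF it took 571 ± 203 TPM on day 0, 507 ± 55.7 on day 2, 394 ± 109 on day 4 and 558 ± 46.6 TPM on day 8. Day 0 was not compared with day 4 in IMF. On day 0 and day 2 the cluster was higher in IMF, and on day 8 it was higher in BF. In these bulk libraries fewer cells with the cluster and less of it per cell cannot be told apart.

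**Figure D1:**
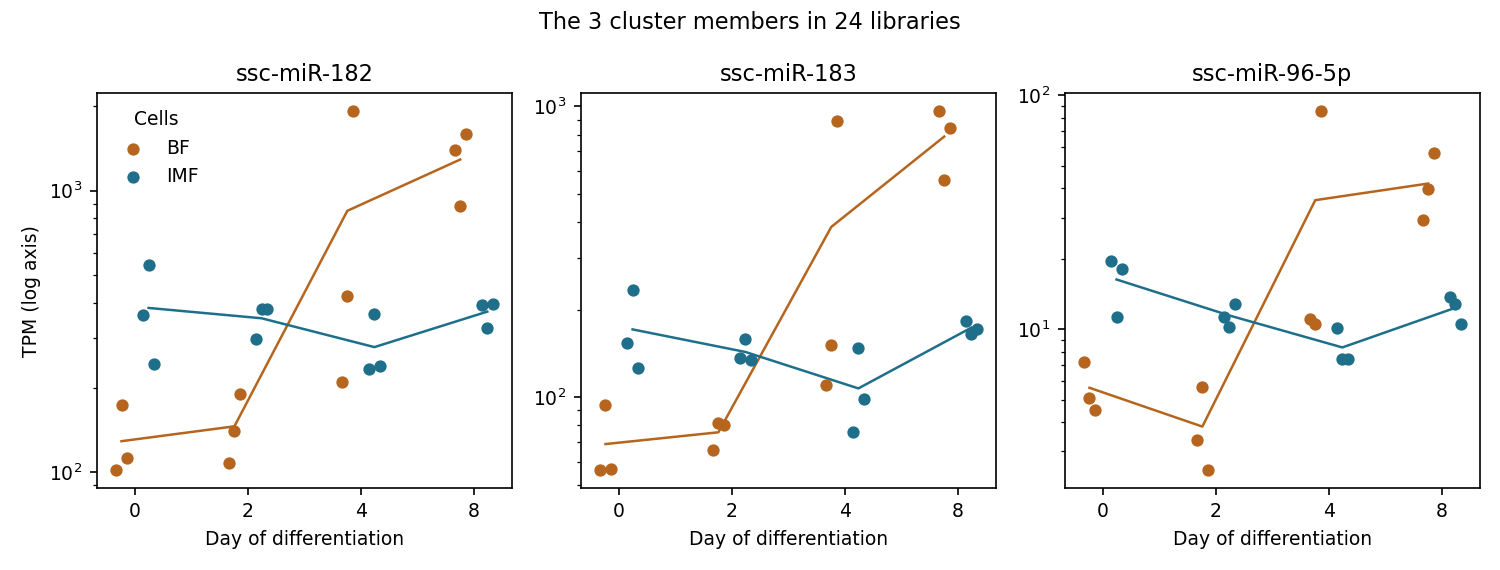
TPM of miR-182, miR-183 and miR-96-5p (log axis) against the day of differentiation, with evenly spaced days. Each point is 1 library (3 per group), brown for BF and blue for IMF, and lines join the group means. The BF means rise from day 2 to day 8 and cross the IMF means, and 1 BF-4d library lies above the other 2 for each member.

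In BF cells, miR-182 measured 102, 173 and 112 TPM in the 3 BF-0d libraries and 108, 140 and 189 TPM in BF-2d. It measured 209, 424 and 1911 TPM in BF-4d, and 1394, 885 and 1590 TPM in BF-8d. Every BF-8d library lay above every BF-0d library. BF-4d ran from just above day 2 to a library, replicate 3, that exceeded every BF-8d library. miR-183 gave 56.2, 94.3 and 56.4 TPM in BF-0d and 65.6, 81.4 and 80.1 TPM in BF-2d. It gave 110, 151 and 894 TPM in BF-4d, and 961, 557 and 844 TPM in BF-8d. The days stood in the same order as for miR-182, and the same BF-4d library, replicate 3, was the high one. miR-96-5p gave 7.23, 5.10 and 4.51 TPM in BF-0d and 3.34, 5.65 and 2.50 TPM in BF-2d. It gave 11.0, 10.5 and 85.3 TPM in BF-4d, and 29.2, 39.7 and 56.9 TPM in BF-8d. Here too BF-4d replicate 3 stood far above replicates 1 and 2, and it exceeded every BF-8d library.

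A DE-miRNA was called at an FDR under 0.05 (limma on log2(TPM + 1), Benjamini-Hochberg over the 430 miRNAs that averaged 1 TPM or more) and a fold change above 1.5. In BF-0d vs. BF-8d all 3 members were DE-miRNAs and rose, where 42.8% of all tested miRNAs were called and 27.9% were called higher. The ratio of the group means was 9.99 for miR-182, 11.4 for miR-183 and 7.47 for miR-96-5p. The log2 fold change of miR-182 was 3.31 (SE 0.25, adjusted p = 8.92e-09), that of miR-183 was 3.50 (SE 0.25, adjusted p = 5.66e-09) and that of miR-96-5p was 2.67 (SE 0.26, adjusted p = 3.05e-07). All tested miRNAs together had a median log2 fold change of 0.15 in this comparison. In none of the 3 members did a BF-0d and a BF-8d library overlap, a state that 32.8% of all tested miRNAs reached in this direction. The exact permutation test of 3 against 3 libraries gave p = 0.1, the smallest value it can give.

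The step at which the rise in BF took place was less certain. In BF-0d vs. BF-2d no member was called by limma, edgeR or DESeq2 and 0 had an unadjusted p under 0.05. Of all miRNAs limma called 4.19% there, edgeR 13.0% and DESeq2 13.9% of those it gave an adjusted p. In BF-2d vs. BF-4d the log2 fold changes were 1.96 for miR-182, 1.69 for miR-183 and 2.29 for miR-96-5p, and 0 members were called by limma (adjusted p = 0.0790, 0.101 and 0.0597), where it called 6.05% of all miRNAs. All 3 had an unadjusted p under 0.05, edgeR called 0 of them, beside 3.95% of all miRNAs, and DESeq2 called 1, miR-96-5p, beside 12.7%. Every BF-4d library was nevertheless above every BF-2d library for each member, as was so for 24.4% of all tested miRNAs. With the replicate number as a block limma called all 3 members, beside 9.77% of all miRNAs. So did one fit of all 24 libraries, beside 24.2%. In BF-4d vs. BF-8d the log2 fold changes were 1.18, 1.64 and 0.86 in the same order. limma, edgeR and DESeq2 called 0 members, 1 had an unadjusted p under 0.05 in limma and 0 in the other tools, and the share of all miRNAs called was 3.02% with limma, 3.02% with edgeR and 5.96% with DESeq2.

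Both steps turned on the BF-4d libraries. Without BF-4d replicate 3 all 3 members were DE-miRNAs in BF-4d vs. BF-8d, with log2 fold changes of 2.07 for miR-182, 2.57 for miR-183 and 1.82 for miR-96-5p (limma adjusted p = 0.00348, 7.44e-04 and 0.00560), where 5.58% of all miRNAs were called. BF-2d vs. BF-4d then gave smaller log2 fold changes of 1.07, 0.76 and 1.33, with no member called and 0.465% of all miRNAs called. Without BF-4d replicate 1 the opposite held: all 3 members were called in BF-2d vs. BF-4d, with log2 fold changes of 2.66, 2.27 and 2.76 (adjusted p = 0.00297, 0.0112 and 0.00950), and none in BF-4d vs. BF-8d. The shares of all miRNAs called rose as well, to 18.1% and 6.98%.

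The BF-4d libraries lay further apart in the whole cluster than those of any other group. In BF-4d replicate 3, against the mean log2(TPM + 1) of replicates 1 and 2, miR-96-5p was 7.35-fold higher, miR-183 6.90-fold and miR-182 6.40-fold on the TPM + 1 scale, which gave them ranks 1, 2 and 4 of the 430 tested miRNAs. The mean deviation of the members was 2.78 on the log2 scale in this library, and it lay between -1.74 and 0.48 in the other 23, in which the 2 lowest were the other BF-4d libraries. In BF-4d replicate 1 the mean was -1.74, and miR-182, miR-183 and miR-96-5p took ranks 430, 428 and 425. Each library was set against the other 2 of its group, so replicate 3 is part of that value. Across all tested miRNAs the deviations in this library had an SD of 0.56, and the library was most alike its own group, with r = 0.9875. BF-4d replicate 1 was in contrast slightly more like BF-8d (r = 0.9816) than like the other BF-4d libraries (r = 0.9807), although its cluster level was low.

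**Figure D2:**
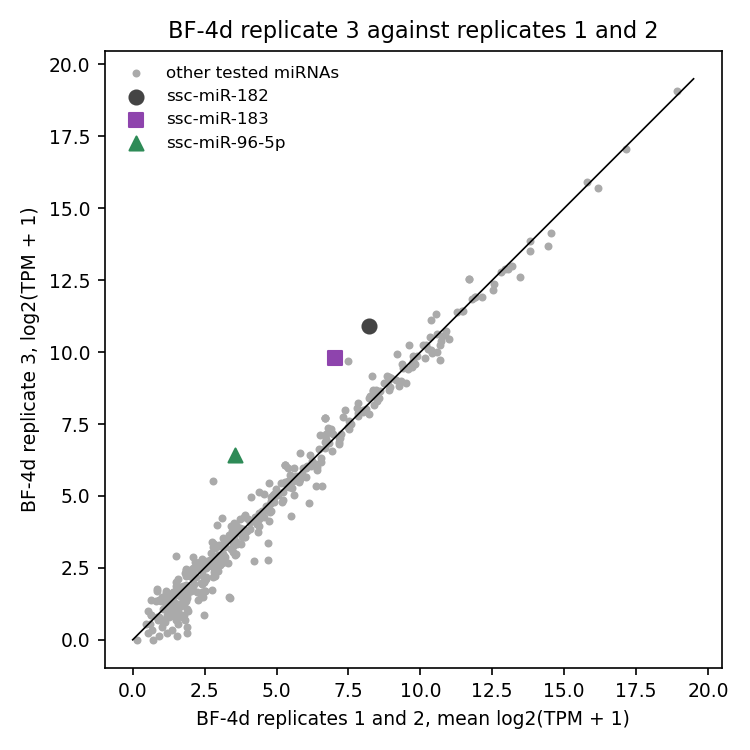
log2(TPM + 1) of the 430 tested miRNAs in BF-4d replicate 3 against the mean of replicates 1 and 2, with the line of equal values. Grey points are the other miRNAs and the coloured symbols are the 3 members, which lie 2.68 to 2.88 above the line.

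In IMF cells, miR-182 measured 363, 544 and 243 TPM on day 0 and 297, 381 and 379 TPM on day 2. It measured 232, 365 and 238 TPM on day 4 and 394, 326 and 396 TPM on day 8. The 4 days overlapped, and day 0 held both the highest and one of the lowest libraries. miR-183 gave 154, 233 and 126 TPM on day 0 and 136, 159 and 134 TPM on day 2. It gave 75.9, 147 and 98.6 TPM on day 4 and 183, 165 and 172 TPM on day 8. Its 2 lowest libraries were of day 4, and every day 4 library was below every day 8 library. miR-96-5p gave 19.6, 11.3 and 18 TPM on day 0 and 11.3, 10.2 and 12.8 TPM on day 2. It gave 10.1, 7.47 and 7.48 TPM on day 4 and 13.7, 12.8 and 10.5 TPM on day 8. Day 4 was again the lowest day, below day 2 without overlap, as 16.5% of all tested miRNAs were, and below day 8.

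No member was a DE-miRNA between any IMF days compared. In IMF-0d vs. IMF-8d, where limma called 30.5% of all miRNAs, the log2 fold change was 0.03 for miR-182 (95% interval -0.65 to 0.71), 0.06 for miR-183 (-0.47 to 0.59) and -0.34 for miR-96-5p (-0.89 to 0.21), with an unadjusted p under 0.05 for 0 members. edgeR and DESeq2 also called 0 members there and each gave 1 unadjusted p under 0.05. Each interval reached the 1.5-fold criterion on at least 1 side and stayed below the changes measured in BF. In IMF-0d vs. IMF-2d and in IMF-2d vs. IMF-4d limma called 0 members and 0% of all miRNAs, with 0 members but 68 and 65 of all miRNAs at an unadjusted p under 0.05. edgeR called 7 and 1 of all miRNAs there, DESeq2 9 and 2, and neither called a member. For day 4 to day 8 the log2 fold changes were 0.45, 0.74 and 0.52 for miR-182, miR-183 and miR-96-5p. In that comparison 13.0% of all miRNAs were called but 0 members were, with limma (adjusted p = 0.168, 0.0814 and 0.123, 2 of them with an unadjusted p under 0.05), edgeR or DESeq2. miR-183 and miR-96-5p did not overlap between these days, as 30.5% of all tested miRNAs did not in this direction. Without IMF-4d replicate 2, limma called 2 of the 3 members in this step and 11.6% of all miRNAs.

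The comparison of the sources asks whether subcutaneous and intramuscular cells differ at the same stage. On day 0 all 3 members were DE-miRNAs and higher in IMF, where 29.3% of all miRNAs were called and 13.5% were called higher in IMF. The ratio of the IMF mean to the BF mean was 2.97 for miR-182, 2.48 for miR-183 and 2.90 for miR-96-5p, and no IMF-0d library overlapped a BF-0d library, as was so for 18.1% of all tested miRNAs in this direction. The log2 fold changes were 1.52 (SE 0.35, adjusted p = 0.0238), 1.30 (SE 0.31, adjusted p = 0.0261) and 1.37 (SE 0.27, adjusted p = 0.0150). On day 2 all 3 were again higher in IMF, by log2 fold changes of 1.30 (SE 0.23, adjusted p = 0.0206), 0.91 (SE 0.14, adjusted p = 0.0140) and 1.41 (SE 0.26, adjusted p = 0.0217), where 12.3% of all miRNAs were called and 5.81% were called higher. The libraries of the sources did not overlap for any member on day 2 either, a state in which 12.8% of all tested miRNAs stood higher in IMF. edgeR and DESeq2 called all 3 members as well, beside 26.3% and 26.2% of all miRNAs on day 0 and 15.8% and 15.2% on day 2. Other settings ended calls. With no filter on low values limma called 0 members on both days (adjusted p = 0.0585 to 0.118 on day 0 and 0.0813 to 0.138 on day 2), beside 4.79% and 0.126% of all miRNAs. On day 2 one fit of all 24 libraries left 1 call, miR-96-5p (adjusted p = 0.0524 for miR-182 and 0.189 for miR-183), beside 16.0% of all miRNAs. The replicate number as a block also left 1, miR-182 (adjusted p = 0.0530 for miR-183 and 0.0823 for miR-96-5p), beside 2.09%. The calls also depended on single libraries. On day 0 they fell to 0 without BF-0d replicate 3, to 1 without BF-0d replicate 1 or IMF-0d replicate 1 and to 2 without IMF-0d replicate 2, with 86 of the 430 tested miRNAs called in the first of these fits, then 21.2%, 23.5% and 23.7%. On day 2 they fell to 0 without BF-2d replicate 1 or without any 1 of the IMF-2d libraries, with 0.465% to 1.86% of all miRNAs called, and to 2 without BF-2d replicate 2, with 7.21%. Over the leave-outs of both days the log2 fold changes lay between 0.81 and 1.81.

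On day 8 the order was the opposite. All 3 members were DE-miRNAs and lower in IMF-8d than in BF-8d without overlap of the libraries, as 34.9% of all tested miRNAs were, where 37.2% of all miRNAs were called and 25.1% were called lower in IMF. The BF mean was 3.47-fold the IMF mean for miR-182, 4.55-fold for miR-183 and 3.39-fold for miR-96-5p. The log2 fold changes, IMF minus BF, were -1.75 (SE 0.21, adjusted p = 1.68e-05), -2.14 (SE 0.20, adjusted p = 1.40e-06) and -1.64 (SE 0.24, adjusted p = 9.60e-05), against a median of -0.28 over all tested miRNAs. All 3 calls held without any 1 of the 6 libraries. On day 4 the log2 fold changes were -1.02, -1.24 and -1.30 with SEs of 0.58 to 0.59, and limma called 0 members (adjusted p = 0.195, 0.124 and 0.103), as did edgeR and DESeq2, with 1 unadjusted p under 0.05 in limma and 0 in the others. In that comparison 36.3% of all miRNAs were called. miR-96-5p alone was lower in IMF-4d without overlap, like 41.2% of all tested miRNAs. This day again turned on BF-4d: without replicate 3 the log2 fold changes were -0.13, -0.32 and -0.34, without replicate 1 they were -1.72, -1.82 and -1.76 with all 3 called, and without replicate 2 miR-183 and miR-96-5p were called. Of all miRNAs, 34.0%, 39.8% and 32.3% were called in these fits.

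**Figure D3:**
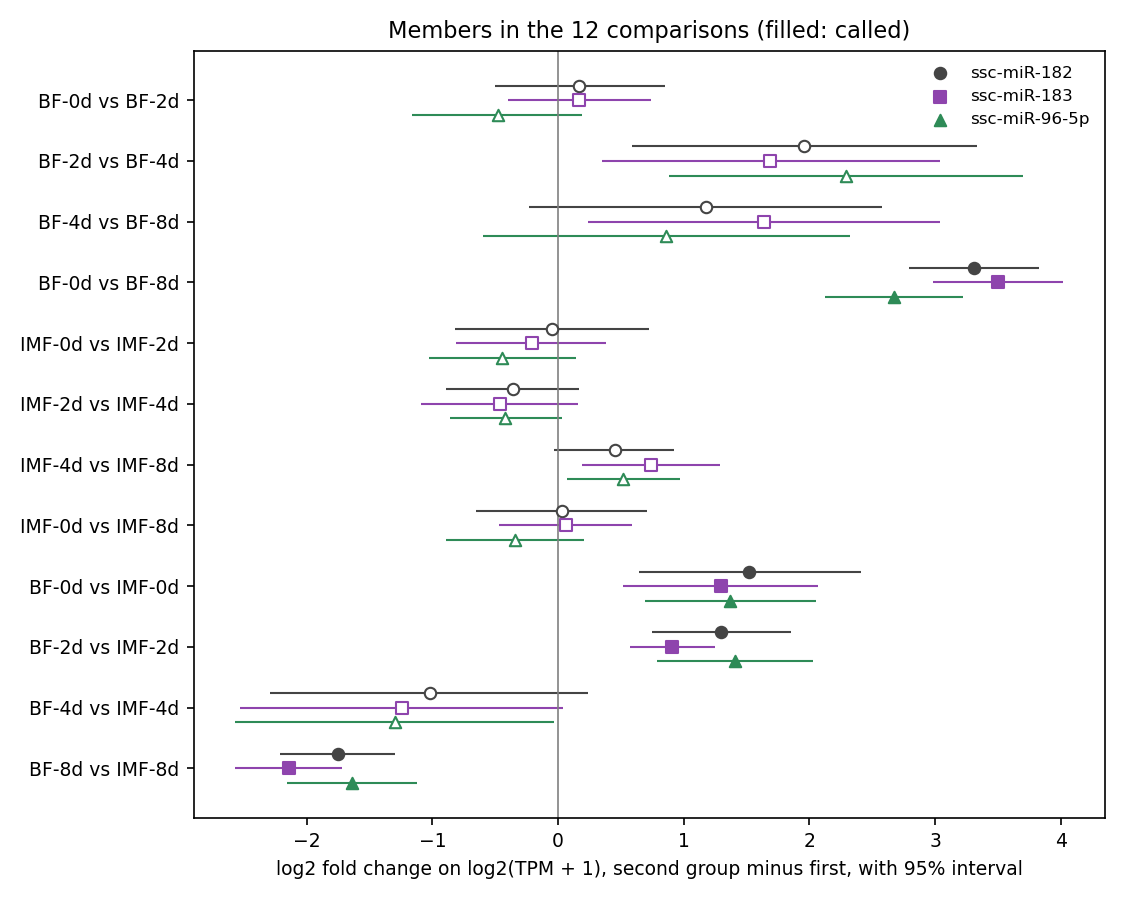
log2 fold changes of the 3 members on log2(TPM + 1), second group minus first, with 95% intervals, in the 12 comparisons of days and sources. Filled symbols are DE-miRNAs: all 3 in BF-0d vs. BF-8d, BF-0d vs. IMF-0d, BF-2d vs. IMF-2d and BF-8d vs. IMF-8d, with the sign turned on day 8, and the intervals are widest where BF-4d enters.

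Whether the time course differed between the sources was tested directly as a source-by-day interaction over all 24 libraries. All 3 members passed (limma F test, adjusted p = 3.14e-04 for miR-182, 2.69e-04 for miR-183 and 2.69e-04 for miR-96-5p), as did 31.6% of all tested miRNAs. From day 0 to day 8 the IMF change minus the BF change was -3.28 for miR-182, -3.44 for miR-183 and -3.01 for miR-96-5p on the log2 scale (SE 0.63 to 0.65, adjusted p = 6.59e-04, 2.83e-04 and 0.00136), where 20.7% of all miRNAs passed. These 3 calls held without any 1 of the 24 libraries. From day 2 to day 4 it was -2.32, -2.16 and -2.71 (adjusted p = 0.0262, 0.0345 and 0.00985), where 7.67% passed. DESeq2 passed all 3 members as well, but edgeR passed miR-96-5p alone (adjusted p = 0.0614 for miR-182 and 0.0680 for miR-183), as did limma with median-of-ratios scaling (0.0933 and 0.110) and with no filter (0.0839 and 0.109). The shares of all miRNAs were 6.76%, 2.56%, 4.19% and 0.945% in these fits. Without BF-4d replicate 3 it was -1.43, -1.23 and -1.75, and miR-96-5p alone passed (adjusted p = 0.0577, 0.0577 and 0.00538), beside 4.19% of all miRNAs. The same single call was left without BF-2d replicate 1, IMF-2d replicate 2 or 3, or IMF-4d replicate 1 or 3, beside 3.95% to 6.28%, and 2 calls were left without BF-2d replicate 3 (2.79%) or IMF-2d replicate 1 (4.65%). From day 0 to day 2 and from day 4 to day 8 limma passed 0 members, with 0 unadjusted p under 0.05, as did edgeR and DESeq2, where limma passed 2.33% and 12.3% of all miRNAs. Without BF-4d replicate 3 all 3 members passed from day 4 to day 8, at -1.62, -1.83 and -1.30, beside 12.3% of all miRNAs.

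Ordered by mean level, the groups ran alike for the 3 members, with BF-0d and BF-2d at the low end, the IMF groups in the middle and BF-4d and BF-8d at the top. For miR-182 the means were 129 TPM in BF-0d, 145 in BF-2d, 278 in IMF-4d, 352 in IMF-2d, 372 in IMF-8d, 383 in IMF-0d, 848 in BF-4d and 1290 in BF-8d. Of these neighbours only BF-2d and IMF-4d did not overlap in their libraries. For miR-183 they were 69.0 TPM in BF-0d, 75.7 in BF-2d, 107 in IMF-4d, 143 in IMF-2d, 171 in IMF-0d, 173 in IMF-8d, 385 in BF-4d and 788 in BF-8d, and every neighbouring pair overlapped. For miR-96-5p they were 3.83 TPM in BF-2d, 5.61 in BF-0d, 8.35 in IMF-4d, 11.4 in IMF-2d, 12.4 in IMF-8d, 16.3 in IMF-0d, 35.6 in BF-4d and 41.9 in BF-8d. Here BF-0d did not overlap IMF-4d, nor IMF-4d IMF-2d. The spread was largest in BF-4d, where the SD was 109% of the mean for miR-182, 115% for miR-183 and 121% for miR-96-5p, and in the other groups it was 5.17% to 42.6%.

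The members moved together across the 24 libraries. Pearson's r of log2(TPM + 1) was 0.97 between miR-182 and miR-183, 0.89 between miR-182 and miR-96-5p and 0.89 between miR-183 and miR-96-5p. Without BF-4d replicate 3 it was 0.97, 0.85 and 0.86. These are descriptions over libraries that share groups and, for each pair, the library totals.

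The proportion of the members to each other was compared between the sources, since a ratio within a library does not depend on how that library was scaled. The ratio of miR-182 to miR-183 was higher in IMF. In BF it was 1.81, 1.84 and 1.99 on day 0, 1.64, 1.72 and 2.36 on day 2, 1.90, 2.81 and 2.14 on day 4 and 1.45, 1.59 and 1.88 on day 8. In IMF it was 2.35, 2.34 and 1.92 on day 0, 2.19, 2.39 and 2.82 on day 2, 3.06, 2.48 and 2.41 on day 4 and 2.15, 1.98 and 2.31 on day 8. The group mean was higher in IMF on each of the 4 days, and the libraries were free of overlap on day 8 only. With the sources permuted within each day, the log2 ratio was 0.31 higher in IMF, which is 1.24-fold (exact two-sided permutation test, p = 0.00122, adjusted p = 0.00367 over the 3 ratios computed). Without replicate 1 of each group the difference was 0.21 and the adjusted p of the exact permutation test was 0.144.

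**Figure D4:**
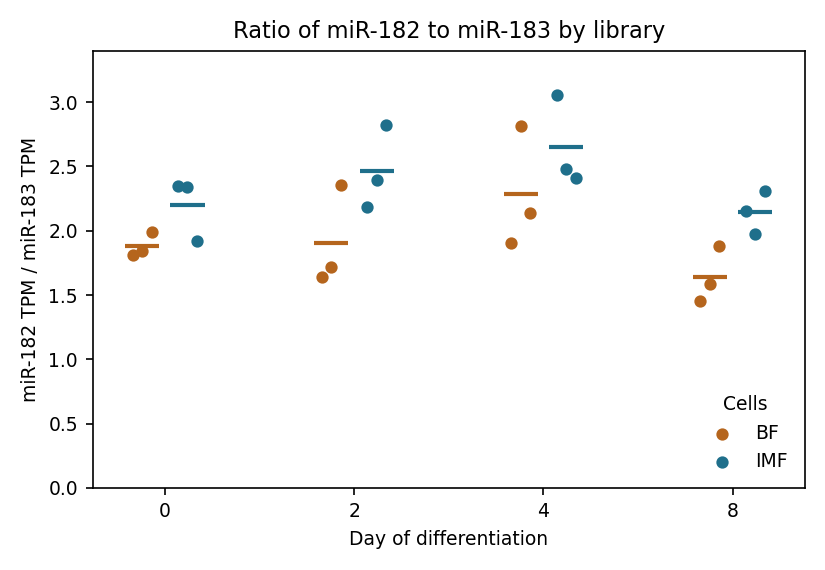
Ratio of miR-182 to miR-183 in each library (points, 3 per group) against the day of differentiation, brown for BF and blue for IMF, with a bar at the group mean. The IMF mean is above the BF mean on each day, 2.20 against 1.88, 2.47 against 1.91, 2.65 against 2.28 and 2.15 against 1.64.

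The other ratios did not pass. miR-96-5p to miR-183 was 0.0707 ± 0.0283 in the 12 BF libraries and 0.0862 ± 0.0319 in the 12 IMF libraries, a log2 difference of 0.31 (adjusted p = 0.269 by the permutation test), which was 0.17 without replicate 1 of each group and 0.55 without replicate 2 (adjusted p = 0.0556). miR-182 to miR-96-5p was 32.1 ± 16.5 in BF and 30.8 ± 10.8 in IMF, a log2 difference of -0.01 (adjusted p = 0.975 by the permutation test). miR-96-5p rested on 22 to 950 reads per library, against 530 or more for miR-183 and 871 or more for miR-182.

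The seed of miR-96-5p was also found in 1 other entry, ssc-miR-1271-5p, which is shown beside it because it was far more abundant. Sequences were at hand for 958 of the 1587 entries, so further entries with these seeds were not looked for in the rest.
ssc-miR-1271-5p: cTTGGCACctagtaagcactc
miR-1271-5p matched 9 of 21 aligned positions of miR-96-5p and had 2 exact copies in the genome. It measured 584 ± 217 TPM in BF-0d and 669 ± 166 TPM in BF-8d, and 444 ± 141 TPM in IMF-0d and 587 ± 46.6 TPM in IMF-8d. It was a DE-miRNA in none of the 12 comparisons and its group means lay between 444 and 669 TPM, so the reads with this seed came mostly from it. miR-96-5p made up 1.03% ± 0.429 of the reads with this seed in BF-0d and 6.26% ± 2.86 in BF-8d. In IMF it made up 3.89% ± 1.79 on day 0 and 2.08% ± 0.419 on day 8. In BF-4d its share was 1.95% in the lowest library and 16.2% in the highest.

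The surroundings of the cluster were read for the same pattern. A predicted entry, novel_miR_74, lies on the strand opposite to the miR-183 hairpin. It had 3 to 18 reads per library, with 0.762 ± 0.205 TPM in BF-0d and 1.49 ± 0.911 TPM in BF-8d, and was below the 1 TPM minimum for testing. Of the known miRNAs within 2 Mb, miR-29b, which represses collagen and other matrix genes, rose from 18.1 ± 5.74 TPM in BF-0d to 190 ± 8.35 TPM in BF-8d (log2 fold change 3.37, SE 0.23, adjusted p = 4.27e-09) and was lower in IMF-8d than in BF-8d (log2 fold change -1.70, SE 0.16, adjusted p = 1.97e-06). Unlike the cluster members, miR-29b was also a DE-miRNA in IMF-0d vs. IMF-8d, at a log2 change of 1.0 (adjusted p = 0.00347). Its neighbour in the genome, miR-29a-3p, rose less, from 823 ± 159 TPM in BF-0d to 1273 ± 127 TPM in BF-8d (0.64 on the log2 scale, adjusted p = 0.0142), and miR-29a-5p rose by 1.23 on that scale (adjusted p = 0.00512). miR-335 was not called in BF-0d vs. BF-8d and was higher in IMF-8d than in BF-8d, by 1.06 on the log2 scale (adjusted p = 0.00221). miR-129b rose in BF from 649 ± 152 to 4503 ± 499 TPM, and it has the same mature sequence as miR-129a-5p, so that its reads cannot be assigned to this locus.

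To describe which miRNAs followed the cluster, each of the other tested miRNAs was correlated with the mean log2 level of the 3 members over the 24 libraries. The 10 most alike were miR-210, the miRNA induced by hypoxia (r = 0.79), the muscle miRNA miR-133a-3p (0.79), miR-221-5p (0.78), miR-574-5p (0.74), miR-129a-5p and miR-129b (0.71 each, with 1 sequence), miR-224 (0.71), miR-29b (0.71), miR-222 (0.71) and the predicted novel_miR_298 (0.70). The 3 least alike were novel_miR_484 (-0.77), miR-92b-3p (-0.77) and miR-99a-5p (-0.74). Without BF-4d replicate 3 the r of miR-210 was 0.80, and 4 of the 10 were again among the 10 highest. miR-210 measured 17.8 TPM on average in BF-0d, 62.8 in BF-2d, 196 in BF-4d and 498 in BF-8d, and 67.9, 61.2, 58.7 and 258 on the same days in IMF. Like the members it exceeded BF in IMF-0d (by 1.87 on the log2 scale, adjusted p = 0.00105) and was below BF in IMF-8d (-0.94, adjusted p = 0.00142), but it also rose between IMF-0d and IMF-8d, by 1.90 (adjusted p = 6.16e-04). From day 0 to day 8 miR-221-5p went from 229 to 1864 TPM in BF and from 302 to 434 TPM in IMF. It was called in BF-0d vs. BF-8d (2.87, adjusted p = 1.20e-06). In IMF-0d vs. IMF-8d it passed the FDR (0.52, adjusted p = 0.0222) but missed the 1.5-fold criterion. All 10 were DE-miRNAs and rose in BF-0d vs. BF-8d, where 42.8% of all tested miRNAs were called and 27.9% were called higher. This comparison contributes to r, by which the 10 were picked.

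**Figure D5:**
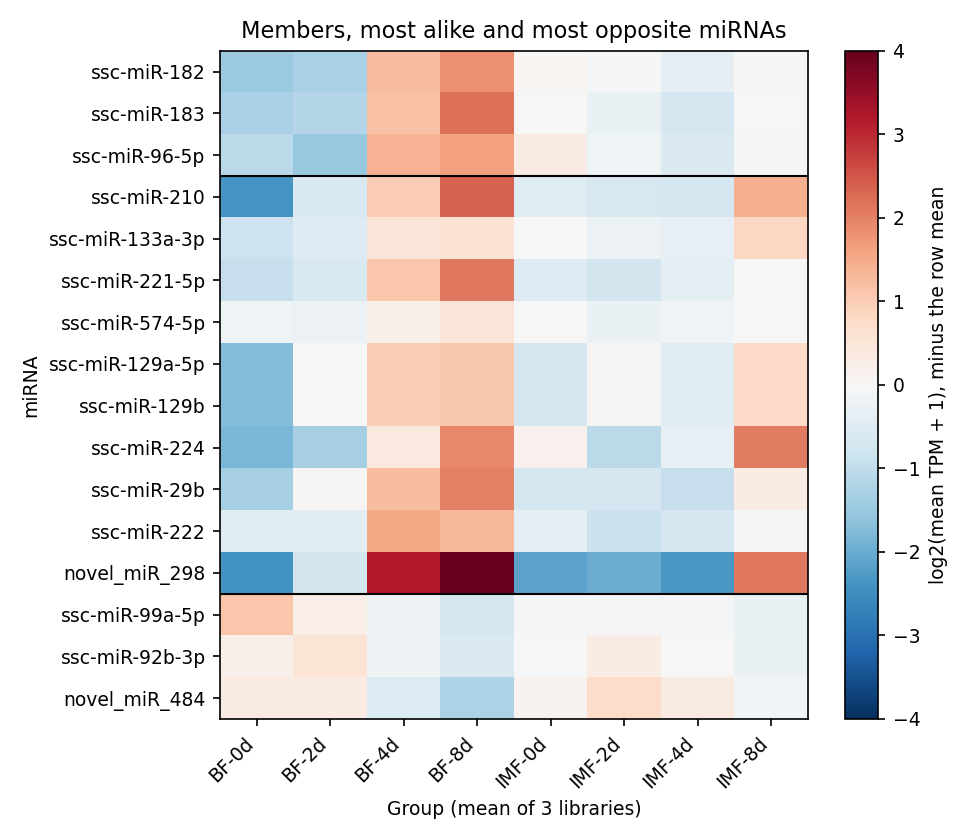
log2(mean TPM + 1) of the 8 groups, minus the mean of each row, for the 3 members (top), the 10 most alike miRNAs (middle) and the 3 least alike (bottom). Red is above and blue below the row mean: the members are red in BF-4d and BF-8d and near white in IMF-8d, where miR-210, miR-224 and novel_miR_298 are red.

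Related miRNAs were counted in lists that were put together from general knowledge. Of 14 tested entries of miRNAs known to favour adipocyte formation, 7 rose and 1 fell in BF-0d vs. BF-8d, where 42.8% of all tested miRNAs were called and 27.9% were called higher, with a median log2 fold change of 0.52 against 0.15 for all tested miRNAs. In IMF-0d vs. IMF-8d, where no cluster member was called, 7 of the 14 rose and 0 fell, where 30.5% of all tested miRNAs were called in either direction, with a median of 0.55 against 0.07. miR-148a-3p, which promotes adipogenesis, averaged 120728 TPM in BF-0d and 303301 TPM in BF-8d, and 130265 and 229926 TPM in IMF-0d and IMF-8d. It rose in both (log2 fold change 1.32, adjusted p = 1.72e-04, and 0.82, adjusted p = 0.0382). Of 10 tested entries of anti-adipogenic miRNAs, 4 rose and 4 fell in BF-0d vs. BF-8d, beside the same 42.8% called of all tested miRNAs, with a median of 0.13. The 4 that rose included miR-221-5p, miR-221-3p and miR-222, and those that fell included miR-27a and miR-27b-3p, which repress PPARG. In IMF-0d vs. IMF-8d, with 30.5% of all tested miRNAs called, 1 rose and 1 fell.

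Among 6 tested entries of other miRNAs that target FOXO1, 4 rose and 1 fell in BF-0d vs. BF-8d (median 0.98, with 42.8% of all tested miRNAs called and 27.9% called higher), and 0 rose and 1 fell in IMF-0d vs. IMF-8d (30.5% called). Of the 4 that rose, 3 are miR-9 entries with the same values, at a log2 fold change of 0.98 each (adjusted p = 9.30e-04), and the fourth was miR-139-5p (1.0, adjusted p = 0.00700). The miR-9 entries averaged 25.9 TPM in BF-0d, 51.9 in BF-8d, 18.8 in IMF-0d and 22.7 in IMF-8d. miR-33b, which is encoded in an intron of the gene for SREBP-1, had at most 0.656 TPM over its 2 entries in any library and was not tested.

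Markers of other cell types were read beside the members. The 5 epithelial entries summed to 0.0938 to 3.89 TPM in a library, 0.593 to 3.89 in BF-0d and 0.404 to 0.779 in BF-8d, and none was tested, while the cluster members rose. The 7 blood entries summed to 0.662 to 8.08 TPM, with 1.19 to 1.99 in BF-0d, 3.71 to 4.44 in BF-8d, 1.31 to 1.87 in IMF-0d and 6.68 to 8.08 in IMF-8d. The 7 skeletal muscle entries, among which miR-1 supplied most reads, summed to 819 to 1013 TPM in BF-0d, 1324 to 2362 in BF-8d, 910 to 1739 in IMF-0d and 982 to 1632 in IMF-8d. Of the 3 tested muscle entries 2 rose and 1 fell in BF-0d vs. BF-8d, where 42.8% of all tested miRNAs were called and 27.9% were called higher. miR-1 rose with a log2 fold change of 0.91 (adjusted p = 0.00280) and miR-133a-3p with 1.43 (adjusted p = 3.65e-05), and miR-499-5p fell from 20.1 ± 2.65 to 11.9 ± 3.01 TPM (log2 fold change -0.73, adjusted p = 0.0195). miR-206, which marks myoblasts, averaged at most 0.520 TPM in any group. In BF-8d vs. IMF-8d, where 37.2% of all tested miRNAs were called, 0 of the 3 tested muscle entries were called by limma. None was called on day 4 either. On day 0, where 29.3% were called, miR-133a-3p was higher in IMF (log2 fold change 0.82, adjusted p = 0.0330) and 1 other entry was lower. On day 2, where 12.3% were called, 1 entry was higher in IMF. The endothelial miR-126 entries summed to 38.1 to 71.2 TPM in BF-0d, 51.2 to 90.9 in BF-8d, 18.2 to 40.4 in IMF-0d and 24.6 to 34.8 in IMF-8d, and both were lower in IMF-8d than in BF-8d. The 3 neural miR-9 entries have the same values, so their sum counts the same level 3 times. It was 66.5 to 89.3 TPM in BF-0d, 144 to 168 in BF-8d, 50.2 to 65.0 in IMF-0d and 62.0 to 78.0 in IMF-8d. All 3 were called higher in BF-8d than in BF-0d, and none was called in IMF-0d vs. IMF-8d or BF-0d vs. IMF-0d. They were called lower in IMF on days 2, 4 and 8, where 12.3%, 36.3% and 37.2% of all tested miRNAs were called. The part of these cell types in the levels of the cluster was not tested.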

How the data were processed

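Small RNA of 24 libraries was sequenced by the authors as 50-nt single-end reads, mapped to Sscrofa11.1 with Bowtie, assigned to known miRNAs and to predicted ones, and compared with DESeq2. The deposited values are RPM, named TPM by the authors: each column sums to 1000000 over 1587 entries. 100% of 38088 values were whole multiples of 1 read within 0.01 reads, so whole reads were recovered, from 4954845 to 16863560 per library, which sets the counting precision. No molecular identifiers are named, so duplicates remain. Samples were grouped by their labels. The mRNA libraries were not analysed here.

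Here log2(TPM + 1) of the 430 entries that averaged 1 TPM or more was fitted in limma 3.58.1 (eBayes with trend, R 4.3.3), 2 groups at a time. Interactions were fitted over all 24 libraries. Calls needed a Benjamini-Hochberg FDR under 0.05 and, outside interactions, a fold change above 1.5. Fold changes on this scale understate the change of low miRNAs. Ratios of members were compared by exact two-sided permutation within days. Other settings tried were median-of-ratios scaling, edgeR 4.0.16, DESeq2 1.42.0, one fit of all libraries, a replicate block, a pseudocount of 0.1, a minimum mean of 10 TPM or none, and leaving out libraries. The fits were tested on simulated data. Mature sequences and hairpins, taken from the study, were matched to Sscrofa11.1 and RefSeq.

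Named are the members, entries that overlap their hairpins or share a seed, known miRNAs within 2 Mb, the 10 most and 3 least correlated miRNAs, examples of the lists and the library that stood apart. The members and lists were chosen with earlier results of these data known. Scripts ran in Python 3.11.15 with SciPy 1.17.1, pandas 2.3.3, NumPy 2.4.6 and Matplotlib 3.10.9.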

Additional observations from a re-analysis of the deposited data

Results flagged for a closer look

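The change of all 3 cluster members over the days differed between BF and IMF cells by a direct test. The source-by-day interaction (limma over 24 libraries) had an adjusted p of 3.14e-04 for miR-182, 2.69e-04 for miR-183 and 2.69e-04 for miR-96-5p. The change from day 0 to day 8 differed with adjusted p = 6.59e-04, 2.83e-04 and 0.00136 in the same order, with a rise in BF and log2 fold changes between -0.34 and 0.06 in IMF. The change from day 2 to day 4 differed with adjusted p = 0.0262, 0.0345 and 0.00985, and of these miR-96-5p alone passed without BF-4d replicate 3. Single outlying libraries were not tested in groups of 3.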

How the results depend on the processing

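The calls of all 3 members in BF-0d vs. BF-8d, in BF-8d vs. IMF-8d, in the source-by-day interaction and in the interaction from day 0 to day 8 held under every alternative run, leaving out single libraries included. Of BF-2d vs. BF-4d, where 0 were called, 1 was called with a pseudocount of 0.1 (7.44% of all miRNAs called) and 1 with DESeq2 (12.7%), and 3 in one fit of all 24 libraries (24.2%). BF-4d vs. BF-8d had 1 call in that fit (18.8%), and IMF-4d vs. IMF-8d had 1 with a mean of at least 10 TPM (24.1%). BF-4d vs. IMF-4d had 2 calls each with a pseudocount of 0.1 (38.4%), with a mean of at least 10 TPM (50.9%) and in one fit of all 24 libraries (42.6%). Without a filter, BF-0d vs. IMF-0d and BF-2d vs. IMF-2d each fell to 0 calls (of more entries tested, 4.79% and 0.126% called), and BF-2d vs. IMF-2d fell to 1 call in one fit of all 24 libraries (16.0%). The interaction from day 2 to day 4 fell to 1 call without a filter (0.945%), with median-of-ratios scaling (4.19%) and with edgeR (2.56%). Where no setting is said to show a cause, the cause was not tested. Median-of-ratios scaling moved the median of all miRNAs by up to 0.34 (BF-4d vs. IMF-4d) and by 0.25 in BF-8d vs. IMF-8d, where the members then stood at -1.43, -1.82 and -1.33.

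Leaving out 1 library at a time gave 0 to 3 calls in BF-2d vs. BF-4d, BF-4d vs. BF-8d, BF-4d vs. IMF-4d, BF-0d vs. IMF-0d, BF-2d vs. IMF-2d and the interaction from day 4 to day 8, 0 to 2 in IMF-4d vs. IMF-8d, and 1 to 3 in the interaction from day 2 to day 4. Deviations of same-numbered libraries from their group means correlated with r from -0.33 to 0.51, and those of different numbers from -0.47 to 0.39. Whether libraries of the same number share a piglet cannot be told from these values or from the labels. With the replicate block, BF-2d vs. BF-4d had 3 calls (9.77% of all miRNAs called) and BF-2d vs. IMF-2d had 1 (2.09%), and the other counts of called members did not change.

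The log2 ratio of miR-182 to miR-183 was 0.30 higher in IMF on days 0 and 2 alone and 0.31 on days 4 and 8 alone (adjusted p = 0.105 each by exact permutation), and 0.21 to 0.38 without 1 replicate number, with adjusted p from 0.00356 to 0.144 over all settings. That of miR-182 to miR-96-5p, not called, turned sign to 0.05 with a pseudocount of 1 and to 0.16 on days 4 and 8 alone, and ran from -0.21 to 0.15 without 1 replicate number.

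Small changes that were not called also turned sign. Without single libraries miR-182 ran from -0.03 to 0.40 in BF-0d vs. BF-2d, from -0.34 to 0.24 in IMF-0d vs. IMF-2d, from -0.26 to 0.32 in IMF-0d vs. IMF-8d and from -0.52 to 0.07 in the interaction from day 0 to day 2. miR-183 ran from -0.41 to 0.03 in IMF-0d vs. IMF-2d and from -0.13 to 0.31 in IMF-0d vs. IMF-8d. miR-96-5p ran from -0.19 to 0.29 in the interaction from day 0 to day 2 and from -1.30 to 0.15 in that from day 4 to day 8. In IMF-0d vs. IMF-8d edgeR gave -0.14 and DESeq2 -0.16 for miR-182, and -0.09 and -0.10 for miR-183. For miR-96-5p DESeq2 gave -7.5e-04 in the interaction from day 0 to day 2, and from day 4 to day 8 edgeR gave 0.11 and DESeq2 0.22.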

Other observations

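In BF-4d replicate 3, 2 miRNAs outside the cluster also stood far above replicates 1 and 2, miR-138 by a size like that of the members and miR-146a-5p by less. miR-138 measured 44.6 TPM there against 4.45 and 7.83 TPM, 6.57-fold the mean of the others on the log2(TPM + 1) scale, and miR-146a-5p, a miRNA of inflammatory signalling, measured 820 TPM against 188 and 172 TPM (4.53-fold on that scale). The next in order, miR-504, measured 6.55 TPM against 1.76 and 1.90 TPM (2.67-fold on that scale, which understates the change of low miRNAs). These 3 were picked after their values were seen.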
